A study of Mus musculus with 18 samples.

Results

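The genes described here are the protein-coding genes of the 4 mouse histone clusters, taken as every row of the deposited table whose symbol starts with Hist1h to Hist4h and whose biotype is protein-coding. There are 67 of them among 38250 rows. The Hist1 cluster on chromosome 13 holds 54, the Hist2 cluster on chromosome 3 holds 10, the Hist3 pair lies on chromosome 11 and the single Hist4 gene on chromosome 6. By protein, 6 encode the linker histone H1, 18 encode H2A, 18 encode H2B, 12 encode H3 and 13 encode H4.

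The RNA came from the lateral cortex of C57BL/6 mouse embryos at embryonic day 14.5, in 3 sorted cell fractions with 3 libraries each. All fractions came from embryos with reporters at 2 genes: Btg2, an antiproliferative gene of neurogenic progenitors, and Tubb3, which encodes a tubulin of neurons. Per the labels, meninges were taken off and ganglionic eminences cut away ahead of the sort. The fractions are proliferating progenitors (PP, negative for the Btg2 reporter), differentiating progenitors (DP, positive for the Btg2 reporter) and neurons (Neuron, positive for the Tubb3 reporter). The genotype label, Btg2GFP/Tubb3GFP, differs from the titles, which write RFP where Btg2 is meant. Each library is a pool of more than 3 embryos of different litters, enriched for poly-A RNA, so the p-values reflect how such pools vary. A fluorescent reporter can outlast the activity of its promoter, so a fraction is defined by the reporter and not by the gene's RNA.

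Histone cluster genes are known as replication-dependent genes: their RNA is made mainly in S phase, when new DNA has to be packed into nucleosomes. Their mRNA typically ends in a short stem-loop and not in a poly-A tail. Slbp, the stem-loop binding protein, holds that end through processing, export and translation. Some of these genes are also known to make polyadenylated mRNA from a site past the stem-loop, in cells that have left the cycle among others. Poly-A selection keeps polyadenylated RNA, so the levels below are those of histone RNA that passed this selection and not of all histone RNA in the cells.

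The stem-loop is the sequence that sets this gene family apart, so its forms are shown first. The motif, stem arms GGNNCT and AGNNCC joined by a loop TNTN with no gap, was searched on the sense strand of the GENCODE M21 transcripts (GRCm38), a later annotation than the one the authors counted on. It was found in 38 of the 55 members with a transcript under the same identifier, and 17 had no match. For 12 members the annotation holds no transcript under that identifier. A missing match does not show that a gene lacks the stem-loop. Hist1h2af, Hist1h2ah, Hist1h2ai, Hist1h2ak, Hist1h2an and Hist1h4k, all without a match, have transcripts shorter than any matched one of their class. Such transcripts may end ahead of the stem-loop. Of the others without a match, Hist1h2al is annotated there as a processed pseudogene and Hist2h2bb as a lincRNA. Of all 21901 protein-coding genes in that annotation, 136 (0.621%) held the motif. The capitals below mark the arms of the stem and the lower-case letters the loop.

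Most frequent form, 21 members with Hist3h2a, Hist3h2ba, Hist2h3c1, Hist1h1c and Hist1h2ag among them: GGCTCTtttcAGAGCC
Form of 6 H4 members, Hist1h4d among them: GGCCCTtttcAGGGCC
Form of 5 members, Hist1h3c and Hist1h2bk among them: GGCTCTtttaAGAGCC
Form of Hist1h4i and Hist2h4: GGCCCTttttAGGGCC
Form of Hist1h4b and Hist1h4j: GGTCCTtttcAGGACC
Form of Hist1h4a: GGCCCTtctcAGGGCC
Form of Hist2h2ac: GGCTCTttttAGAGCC

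The stem arms differed by protein: the 11 H4 members with a match carried the 4 forms whose arms begin GGCC or GGTC, and the 27 members of the other classes carried the 3 forms whose arms begin GGCT. Hist3h2a and Hist3h2ba, the 2 most abundant members per length in Neuron, have the same 16 letters as Hist1h2ag, which had 5 reads over all Neuron libraries.

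In these libraries the Hist3 pair and the sum of the other histone cluster genes went in opposite directions. The Hist3 pair, Hist3h2a for H2A and Hist3h2ba for H2B, was higher in DP than in PP and higher again in Neuron. The other 65 members summed to a lower level in DP than in PP and a lower one still in Neuron. Neuron libraries therefore had the highest summed level of all 67 members, although most single members were lowest there. That total depends on Hist3h2a, whose level is uncertain because it shares exon bases with another gene, Trim17. Not every other member followed the sum of the 65. Hist2h3c1 and Hist2h3c2 were also higher at both steps, and Hist1h1c, Hist1h2ac, Hist1h2bc and Hist2h2aa2 were higher in Neuron than in DP. Hist2h4 was higher in Neuron than in PP.

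Levels are given as CPM, the count scaled by the TMM-adjusted library total. Over all members the sum was 126.4, 152.9 and 124.9 CPM in the PP libraries, 145.6, 178.5 and 141.4 CPM in DP, and 262.1, 270.9 and 265.9 CPM in Neuron. The 3 Neuron libraries lay above all the others, while DP and PP overlapped. In each of the 3 sets of consecutive library numbers, DP was above PP. Hist3h2a alone had 122.8 to 146.1 CPM in the Neuron libraries, and the order of the libraries in this sum depends on it. Its level is uncertain because of the bases shared with Trim17, so the total and the shares of the pair are uncertain too. The Hist3 pair made up 51.7% to 59.0% of the members' sum in DP, against 32.8% to 35.4% in PP. In Neuron the pair made up 85.7% to 87.4%. Without the pair, the remaining members summed to 67.4 ± 8.26 CPM in DP, against 89.3 ± 11.8 CPM in PP (SD, n = 3 each). In Neuron they summed to 35.9 ± 2.53 CPM (SD, n = 3).

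**Figure D1:**
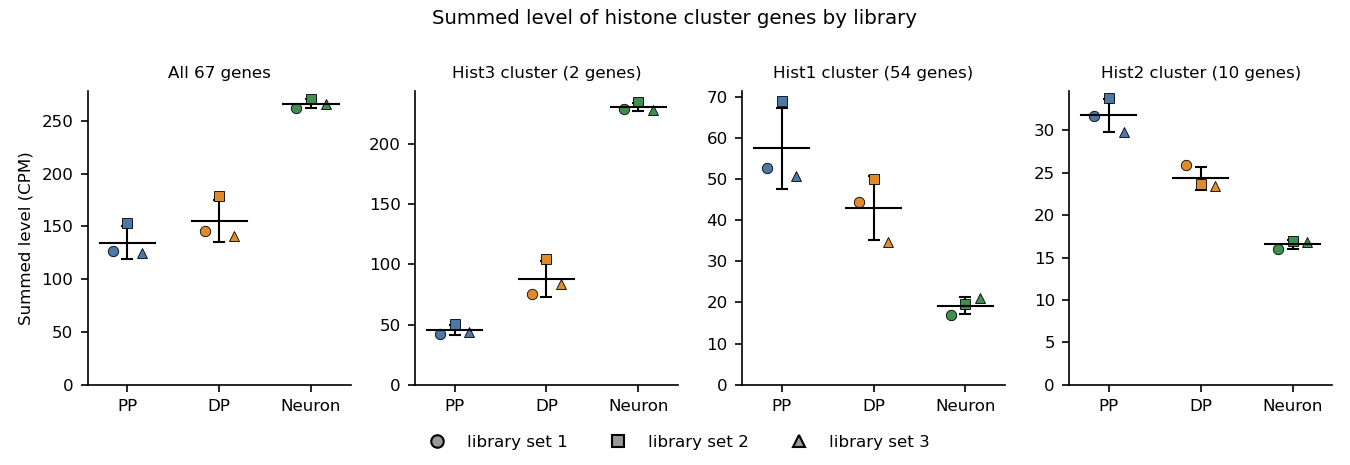
Summed level in CPM of all 67 histone cluster genes, the Hist3 pair, the Hist1 cluster and the Hist2 cluster in each library of PP, DP and Neuron; marker shapes are library sets of consecutive library numbers, horizontal lines are means and bars are SD over 3 libraries. The Hist3 pair averaged 45.5 CPM in PP, 87.8 CPM in DP and 230.4 CPM in Neuron, while the Hist1 sum averaged 57.4 CPM in PP, 43.0 CPM in DP and 19.3 CPM in Neuron. Both the total and the pair include Hist3h2a, whose level is uncertain because it shares exon bases with Trim17.

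The 9 libraries held 34337209 to 55935128 counts, and the members took 0.0137% to 0.0241% of them as reads. The fit tested 18627 features, among them 45 members. Another 22 members did not reach the minimum count, with 1 to 77 reads over all 9 libraries and a mean of at most 0.234 CPM in any group. These include the testis-type genes Hist1h1t and Hist1h2ba, and Hist4h4. Of the 45 tested members, 38 were above the filter level in all PP libraries, 35 in all DP libraries and 13 in all Neuron libraries, and 32 got in through PP or DP alone. Such members passed the filter by being higher outside Neuron, so the share of tested members that were lower there describes the set and supports nothing.

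Calls below rest on the quasi-likelihood test of edgeR, Benjamini-Hochberg adjusted over all features, at 0.05. Against PP, DP had 4 members higher, where 21.3% of all features tested were higher, and 8 members lower, where 20.2% of all features were lower. These are 8.89% and 17.8% of the 45 tested members, so the lower share lay near the background and the higher share below it. Against DP, Neuron had 8 members higher (33.1% of all features) and 30 lower (34.2% of all features). Against PP, Neuron had 5 members higher (36.7% of all features) and 36 lower (38.6% of all features). The median log2 fold change of the tested members was -0.41 for DP against PP, -2.14 for Neuron against DP and -2.65 for Neuron against PP. Over all features these medians were -0.02, -0.04 and -0.04. By non-overlapping libraries, 4 members lay above and 14 below in DP against PP (25.1% and 24.7% of all features), 8 above and 32 below in Neuron against DP (35.5% and 36.9%), and 5 above and 36 below in Neuron against PP (38.5% and 40.1%). DP is part of both steps, so a noisy DP value moves the 2 in opposite directions.

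The count of members lower in DP than in PP depended on single libraries. It was 5 without PP library L355, 5 without DP library L356, and 2 and 4 without the second and the third library set. With single-read runs alone it was 2, and there the count of members lower in Neuron than in DP was 8 in place of 30 and that lower in Neuron than in PP 10 in place of 36. With a minimum of 1 CPM in 3 libraries, which leaves few members in the test, those 2 counts were 7 and 9. For DP against PP, the authors' deposited table had 4 members higher and 9 lower, where 18.5% and 17.2% of features with an adjusted p were called. That table had 8 members higher and 35 lower in Neuron than in DP, against 28.4% and 26.8% of features. Every member called there and tested here had the same call in both.

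**Figure D2:**
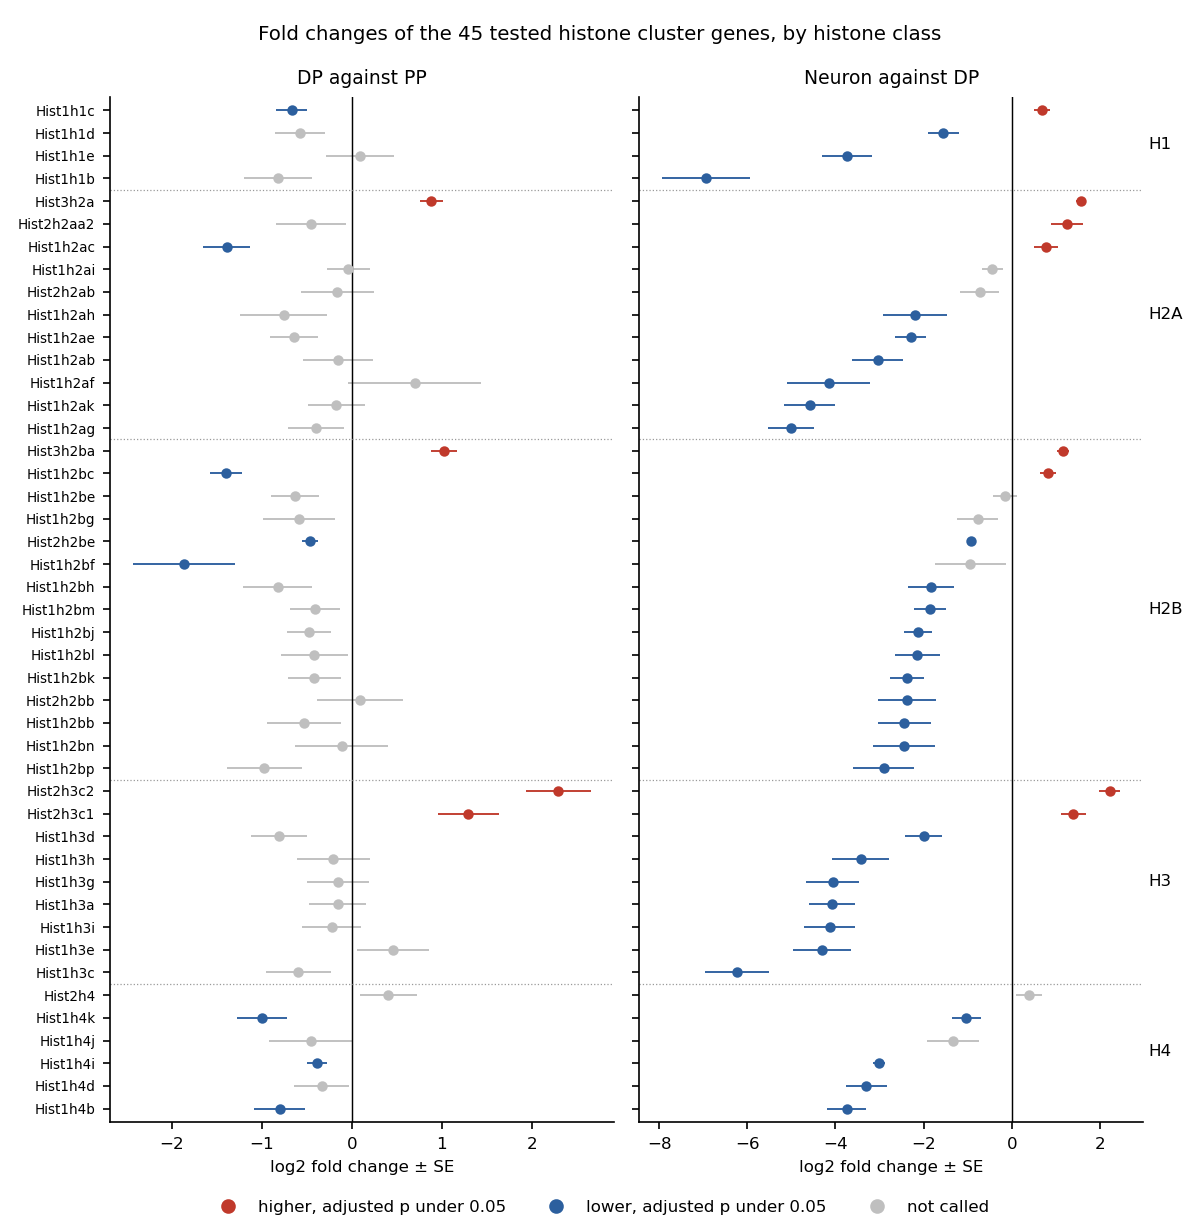
log2 fold change with its SE for the 45 tested members, for DP against PP on the left and Neuron against DP on the right, grouped by histone class and ordered by the Neuron against DP value. In Neuron against DP, 30 members lie left of 0 as called lower, and the 8 called higher are spread over H1, H2A, H2B and H3, with 0 of 6 tested H4 members among them.

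Along the 2 steps, 4 members were higher at both: Hist3h2a, Hist3h2ba, Hist2h3c1 and Hist2h3c2. Another 3 were lower in DP and then higher in Neuron: Hist1h1c, Hist1h2ac and Hist1h2bc. Hist1h4b, Hist1h4i, Hist1h4k and Hist2h2be were lower at both. A further 26 were called only at the second step, where they were lower, and Hist2h2aa2 only there as higher. Hist1h2bf was lower at the first step only, and 6 members were called at neither. Most of the 26 had no Neuron library over the filter level, so they entered the test through PP or DP alone. Of all features, 34.2% were lower and 33.1% higher at the second step, and 20.2% lower and 21.3% higher at the first. The share of all features with each pattern is not given here, so the pattern counts only describe the set. A call at 1 step and none at the other does not show that the steps differ, and the difference between them was not tested.

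The Hist3 pair carries H2A and H2B genes outside the large clusters. Hist3h2ba (chr11:58762413-58763032, mm9, plus strand) had 20.8, 23.0 and 18.2 CPM in PP, 36.6, 52.6 and 37.0 CPM in DP, and 106.2, 88.2 and 87.7 CPM in Neuron. The groups did not overlap at either step. DP stood 2.03-fold above PP (log2 1.02 ± 0.15 SE, adjusted p = 0.000194) and Neuron 2.24-fold above DP (log2 1.16 ± 0.14, adjusted p = 1.88e-05). Per kilobase of exon it was the most abundant member in every group, at 33.4 CPM per kb in PP, 67.8 in DP and 151.7 in Neuron.

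Hist3h2a (chr11:58768187-58770176, mm9, plus strand) had 21.2, 27.2 and 25.9 CPM in PP, 38.7, 52.2 and 46.5 CPM in DP, and 122.8, 146.1 and 140.2 CPM in Neuron. Here too every DP library was above every PP library and every Neuron library above every DP library. The fold was 1.85 for DP against PP (log2 0.89 ± 0.12, adjusted p = 0.000157) and 2.98 for Neuron against DP (log2 1.57 ± 0.12, adjusted p = 3.13e-07). Hist3h2a shares 708 exon bases on the same strand with Trim17, a ubiquitin ligase gene. Trim17 averaged 19.3 ± 2.35 CPM in PP, 34.9 ± 5.01 CPM in DP and 99.8 ± 7.15 CPM in Neuron (SD, n = 3 each). Reads in the shared bases cannot be assigned to 1 of the 2 genes, so the level of Hist3h2a is uncertain. Hist3h2ba shares no exon base with another entry of the table, and 22.1% of its 50-base windows also occur in the pseudogene Hist3h2bb-ps.

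Among H3 genes, the 2 copies Hist2h3c1 and Hist2h3c2 were higher at both steps while the 7 tested Hist1 H3 genes were called lower in Neuron than in DP (34.2% of all features were). None of these 7 had a Neuron library over the filter level, so they entered the test through PP or DP alone. Hist2h3c1 (chr3:96050608-96052427, mm9) had 0.349, 0.320 and 0.329 CPM in PP, 0.447, 1.18 and 0.796 CPM in DP, and 1.92, 2.38 and 2.16 CPM in Neuron. The DP libraries spread widely, from just above the PP libraries to more than 3 times their level. DP stood 2.45-fold above PP (log2 1.29 ± 0.34, adjusted p = 0.00942) and Neuron 2.63-fold above DP (log2 1.39 ± 0.28, adjusted p = 0.000928). The first of these calls was lost without the second library set (adjusted p = 0.143) and without the third (adjusted p = 0.0881), at log2 0.87 and 1.32.

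Hist2h3c2 (chr3:96042040-96043050, mm9) had 0.081, 0.064 and 0.062 CPM in PP, 0.259, 0.426 and 0.338 CPM in DP, and 1.66, 1.73 and 1.47 CPM in Neuron. These are 9, 47 and 213 reads over the 3 libraries of PP, DP and Neuron. The fold was 4.91 for DP against PP (log2 2.29 ± 0.36, adjusted p = 0.000397) and 4.68 for Neuron against DP (log2 2.23 ± 0.23, adjusted p = 4.78e-06). Of the 50-base windows, 63.5% of those of Hist2h3c2 and all of those of Hist2h3c1 also occur in transcripts of other genes. In both cases most of these lie in Gm20634. A gene annotated over the same bases counts as another gene here, which bears on the share of Hist2h3c1. Hist2h3c2 shares no exon base with another entry of the counted annotation. Its share therefore marks sequence that also occurs elsewhere, in a gene that holds all windows of Hist2h3c1. Windows common to the 2 copies were not counted on their own. Hist2h3c1 lies within a second entry of the same name with another biotype, and both entries had nearly equal counts. How much of each value belongs to the gene itself is therefore uncertain.

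The other H3 genes were nearly at 0 in Neuron. Hist1h3c, the most abundant of them per length, had 2.15, 2.24 and 1.79 CPM in PP, 2.28, 0.930 and 0.892 CPM in DP, and 2 reads over all Neuron libraries. DP and PP overlapped, and the DP library L223 was as high as the PP libraries. Its ratio of DP over Neuron was 87.8, with a counting interval of 23.95 to 730.3. Without DP library L223 the gene was called lower for DP against PP (log2 -1.16, adjusted p = 0.0097), against log2 -0.59 ± 0.36 and adjusted p = 0.215 with all libraries. Hist1h3a, Hist1h3d, Hist1h3e, Hist1h3g, Hist1h3h and Hist1h3i, H3 genes of the same cluster, had means of 0.0154 to 0.100 CPM in Neuron, against 0.300 to 0.562 CPM in DP.

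Linker histone H1 binds the DNA between nucleosomes, and its genes moved in different directions. Hist1h1c (chr13:23830676-23832235, mm9) had 7.52, 7.24 and 7.81 CPM in PP, 4.00, 4.59 and 5.62 CPM in DP, and 5.99, 7.48 and 9.503 CPM in Neuron. The DP libraries were below all the others, while Neuron and PP overlapped. DP stood 1.59-fold below PP (log2 -0.67 ± 0.18, adjusted p = 0.010) and Neuron 1.62-fold above DP (log2 0.69 ± 0.18, adjusted p = 0.00433). The difference between Neuron and PP was log2 0.02 ± 0.17 and did not pass the test. The call for DP against PP was lost with single-read runs alone (adjusted p = 0.0534) and without the second library set (adjusted p = 0.0987).

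Hist1h1b had 0.322, 0.662 and 0.801 CPM in PP, 0.330, 0.271 and 0.434 CPM in DP, and 0 reads in all Neuron libraries. Set against a floor of 3 counts over the group, it was at least 14.8-fold lower in Neuron than in DP and at least 26.9-fold lower than in PP. Hist1h1e averaged 0.0570 ± 0.05001 CPM in Neuron and 0.765 ± 0.297 CPM in DP, and Hist1h1d averaged 0.131 ± 0.0204 CPM in Neuron and 0.390 ± 0.122 CPM in DP (SD, n = 3 each). Both were called lower in Neuron. Hist1h1a, with 62 reads in all, and Hist1h1t were not tested.

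Outside the Hist3 pair, 10 H2A genes were tested. Hist1h2ac (chr13:23773336-23775817, mm9) had 1.13, 1.24 and 0.945 CPM in PP, 0.283, 0.465 and 0.507 CPM in DP, and 0.843, 0.610 and 0.721 CPM in Neuron. No DP library reached any library of the other groups. DP stood 2.62-fold below PP (log2 -1.39 ± 0.26, adjusted p = 0.0014) and Neuron 1.72-fold above DP (log2 0.78 ± 0.27, adjusted p = 0.0247). The call for DP against PP was lost with single-read runs alone (adjusted p = 0.101). The second call was lost in 8 of the alternatives, among them those without DP library L223 (adjusted p = 0.0864), Neuron library L224 (adjusted p = 0.0905) or Neuron library L395 (adjusted p = 0.0527).

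Hist1h2ag, with most of its windows shared with other H2A genes, had 1.53, 2.05 and 1.62 CPM in PP, 1.81, 1.12 and 1.04 CPM in DP, and 0.094, 0.020 and 0 CPM in Neuron. Neuron lay below both other groups, which overlapped each other. Neuron stood 32.3-fold below DP (log2 -5.01 ± 0.53, adjusted p = 4.84e-06). Hist1h2ae averaged 0.154 ± 0.0959 CPM in Neuron and 1.23 ± 0.155 CPM in PP (SD, n = 3 each), a fold of 7.64 lower (adjusted p = 7.1e-06 by the same test).

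Hist1h2af varied more between libraries than between DP and PP. It had 3.01, 12.1 and 1.44 CPM in PP, 7.72, 16.9 and 2.17 CPM in DP, and 0.773, 0.528 and 0.180 CPM in Neuron, listed by library set. The second set was highest in PP and DP, and the third was lowest in all groups. In each set DP was above PP, by log2 1.35, 0.48 and 0.59. Fitted over all libraries the difference was log2 0.70 ± 0.74 (adjusted p = 0.487). With library set as a term it was log2 0.77 (adjusted p = 0.0455), and without PP library L355 it was log2 2.04 (adjusted p = 0.0477). Without DP library L356 it was log2 -0.16 (adjusted p = 0.896). The gene shares 79.7% of its 50-base windows with other genes, most of all with Hist1h2ad. In Neuron it was 17.8-fold lower than in DP (log2 -4.16 ± 0.94, adjusted p = 0.00205).

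Hist2h2aa2 was the only H2A gene called at the second step alone as higher, at 0.398, 0.589 and 0.489 CPM in Neuron, against 0.188, 0.213 and 0.217 CPM in DP. It is uncertain, since its whole length lies opposite an antisense gene, 89.4% of its windows occur in other genes, and 98.5% of its reads came from paired-end runs. Hist1h2ai and Hist2h2ab were called in none of the 3 comparisons. Hist1h2ab, Hist1h2ah and Hist1h2ak were called lower in Neuron than in DP, at means of 0.0135 to 0.0406 CPM in Neuron, against 0.189 to 0.430 CPM in DP.

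**Figure D3:**
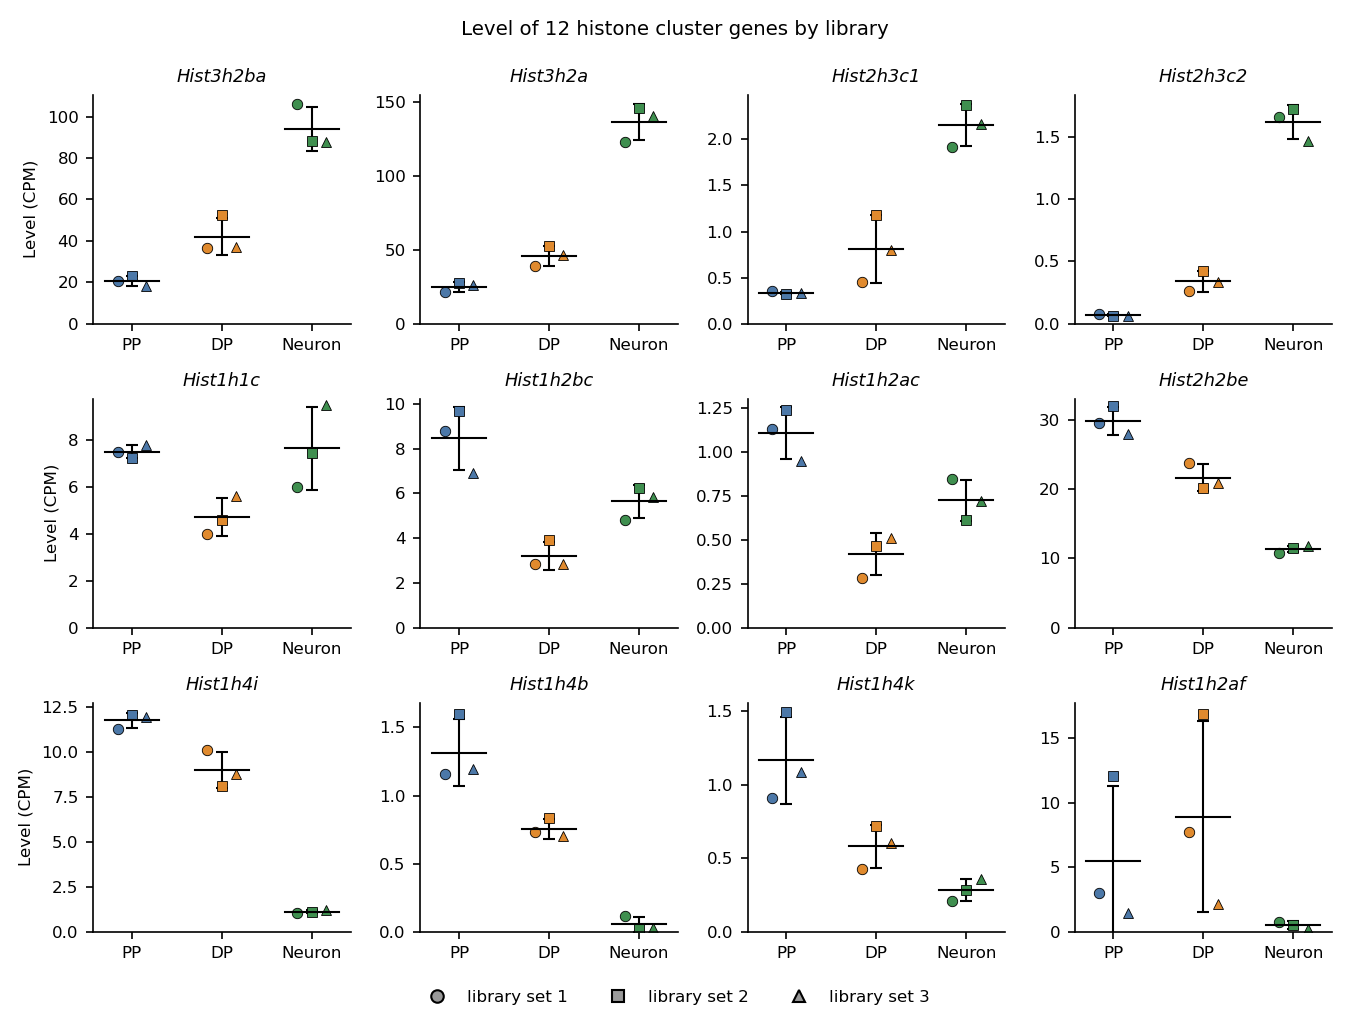
Level in CPM of 12 members in each library of PP, DP and Neuron, on linear axes from 0; marker shapes are library sets, lines are means and bars SD over 3 libraries. The top row rises at both steps, Hist1h1c, Hist1h2bc and Hist1h2ac are lowest in DP, Hist2h2be and the H4 genes are lowest in Neuron, and Hist1h2af spreads by library set.

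Among H2B genes, Hist1h2bc (chr13:23776068-23784357, mm9) had 8.78, 9.67 and 6.92 CPM in PP, 2.85, 3.93 and 2.82 CPM in DP, and 4.82, 6.26 and 5.85 CPM in Neuron. The 3 groups did not overlap, with DP lowest. DP stood 2.63-fold below PP (log2 -1.39 ± 0.18, adjusted p = 9.32e-05) and Neuron 1.76-fold above DP (log2 0.81 ± 0.18, adjusted p = 0.0019). Against PP, Neuron was 1.497-fold lower (log2 -0.58 ± 0.17, adjusted p = 0.00977), a call that was lost without the first library set (log2 -0.43, adjusted p = 0.0933). Hist1h2bc and Hist1h2ac lie head to head, with 250 bases between the 2 gene models, and had the same calls at both steps.

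Such head-to-head pairs of an H2A and an H2B gene are a known feature of histone clusters. The table held 11 of them within 1000 bases of each other, with a median gap of 215 bases. In 6 pairs both genes were tested. In Neuron against DP, both genes were lower in 3 of the 6 pairs (Hist1h2ak with Hist1h2bn, Hist1h2ah with Hist1h2bk, Hist1h2ag with Hist1h2bj). Both were higher in the pair of Hist1h2ac and Hist1h2bc. Of all features, 34.2% were lower and 33.1% higher. No gene of those 3 pairs had a Neuron library over the filter level. They entered the test through PP or DP alone, so the count describes the pairs and supports nothing. In the other 2 pairs the H2A or the H2B gene alone was called lower.

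Hist2h2be (chr3:96025044-96027661, mm9) was the member with the most counts outside the Hist3 pair, and it shares none of its 50-base windows with other genes. It had 29.6, 32.0 and 28.0 CPM in PP, 23.8, 20.2 and 20.9 CPM in DP, and 10.8, 11.5 and 11.8 CPM in Neuron. The 3 groups were apart from each other. DP stood 1.38-fold below PP (log2 -0.46 ± 0.09, adjusted p = 0.00161) and Neuron 1.90-fold below DP (log2 -0.93 ± 0.09, adjusted p = 2.9e-06). Without the second library set the first of these calls was lost (log2 -0.36, adjusted p = 0.068).

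The remaining H2B genes were low. Hist1h2bj averaged 0.150 ± 0.0676 CPM in Neuron and 0.674 ± 0.0670 CPM in DP (SD, n = 3 each), 4.37-fold lower in Neuron (adjusted p = 8.05e-05, edgeR). Hist1h2bf was called lower in DP than in PP on 14 reads in DP and 51 in PP. Hist1h2be and Hist1h2bg were called at neither step and were lower in Neuron than in PP. Of 15 tested H2B genes, 14 were lower in Neuron than in PP, where 38.6% of all features were, and Hist3h2ba was higher. Most of the 14 had no Neuron library over the filter level, so the count describes the set and supports nothing.

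H4 genes encode 1 and the same protein from many copies, and as a class they were lowest in Neuron. Their sum was 16.6 ± 1.56 CPM in PP, 12.4 ± 0.820 CPM in DP and 2.49 ± 0.112 CPM in Neuron (SD, n = 3 each). The most abundant copy per length was Hist1h4i (chr13:22132685-22133221, mm9). It had 11.25, 12.05 and 11.92 CPM in PP, 10.1, 8.12 and 8.75 CPM in DP, and 1.05, 1.10 and 1.19 CPM in Neuron. Every group was apart from the next. DP stood 1.31-fold below PP (log2 -0.39 ± 0.11, adjusted p = 0.0162) and Neuron 8.07-fold below DP (log2 -3.01 ± 0.13, adjusted p = 2.72e-09). The first of these calls was lost when any of 4 libraries was left out (PP L355 or L393, DP L356 or L394), with adjusted p of 0.0502 to 0.0722. It was also lost without the second or the third set and with single-read runs.

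Hist1h4b had 1.15, 1.602 and 1.19 CPM in PP, 0.730, 0.833 and 0.699 CPM in DP, and 0.117, 0.020 and 0.026 CPM in Neuron. DP lay below PP and Neuron below DP in every library. DP stood 1.74-fold below PP (log2 -0.80 ± 0.28, adjusted p = 0.039) and Neuron 13.4-fold below DP (log2 -3.75 ± 0.44, adjusted p = 1.33e-05). The first call was lost without any of 5 libraries (PP L355 or L393, DP L223, L356 or L394), with adjusted p of 0.0549 to 0.144. It overlaps the antisense gene 4930558J22Rik over 299 bases.

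Hist1h4k had 0.913, 1.495 and 1.09 CPM in PP, 0.424, 0.717 and 0.603 CPM in DP, and 0.211, 0.284 and 0.361 CPM in Neuron. The groups did not overlap. DP stood 2.00-fold below PP (adjusted p = 0.0139) and Neuron 2.05-fold below DP (adjusted p = 0.0153). The first call did not hold once DP library L223 was left out (adjusted p = 0.0513) or PP library L355 (adjusted p = 0.0663), the second without Neuron library L224 (adjusted p = 0.0626) or DP library L356 (adjusted p = 0.0663). Hist1h4d was lower in Neuron than in DP, and Hist1h4j at neither step. Hist2h4 averaged 0.607 ± 0.0542 CPM in Neuron and 0.347 ± 0.0173 CPM in PP (SD, n = 3 each) and was higher in Neuron than in PP (log2 0.80 ± 0.31, adjusted p = 0.0331), the 1 H4 gene with that direction.

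Ordered by mean level per length over all libraries, the members fell away steeply, but the order differed between groups. Hist3h2ba had 84.3 CPM per kb and Hist3h2a 34.7, followed by Hist1h4i at 13.6, Hist1h2af at 12.5, Hist2h2be at 8.01, Hist1h2bc at 7.84 and Hist1h1c at 4.26 CPM per kb. Hist1h2ag and Hist1h4k had 2.19 and 2.17 CPM per kb, and Hist1h3c, Hist1h4b and Hist1h2bj had 1.27 to 1.82. Hist1h4i and Hist1h2af cannot be placed in order, given the spread of Hist1h2af. Neither can Hist2h2be and Hist1h2bc, nor Hist1h2ag and Hist1h4k. In PP, Hist1h4i at 21.9 and Hist1h2af at 13.8 CPM per kb were above Hist3h2a at 12.4. In Neuron, Hist1h2bc at 7.67, Hist1h1c at 4.91 and Hist2h2be at 4.35 CPM per kb were above Hist1h4i at 2.07 and Hist1h2af at 1.24.

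The stretch annotated past the stem-loop differed between members. In the GENCODE M21 transcripts, 19 of the 38 members with a stem-loop had more than 100 bases after it in their longest form, from 108 in Hist1h4a to 4884 in Hist1h1d, and 19 had 3 to 74 bases. The 4 members that were higher at both steps all had a long stretch: 1643 bases in Hist3h2a, 1167 in Hist2h3c1, 377 in Hist2h3c2 and 169 in Hist3h2ba. Of Hist1h1c and Hist1h2ac, lower in DP and then higher in Neuron, the stretches were 840 and 2010 bases. In Neuron against DP, 6 of 16 tested members with a long stretch were higher, 6 lower and 4 not called. With a short stretch, 1 of 11 was higher, 9 lower and 1 not called. The background for these calls is 33.1% and 34.2% of all features. None of the 9 lower members with a short stretch had a Neuron library over the filter level. They entered the test through PP or DP alone. Hist2h2aa2, the 1 that was higher, was over that level in all Neuron libraries and in no DP library. The counts by stretch therefore describe the set and support nothing. A long stretch did not go with 1 direction: Hist1h1d, Hist1h1e, Hist1h2ae, Hist1h3e, Hist1h4d and Hist1h4i, with 151 to 4884 bases, were lower in Neuron. Median level per length in Neuron was 0.218 CPM per kb over the members with a long stretch and 0.0527 over those with a short one, and 0.560 and 0.537 CPM per kb in PP. The reads were counted on an earlier annotation. There the exons of Hist1h1d, Hist1h1e, Hist1h4d and Hist1h4i, among others, are shorter in all than these transcripts. RNA from part of the stretch may therefore be missing from their calls and levels, and from the medians. For Hist1h2ae and Hist1h3e, also lower in Neuron, the counted length equals that of the transcript. The poly-A sites used were not measured.

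**Figure D4:**
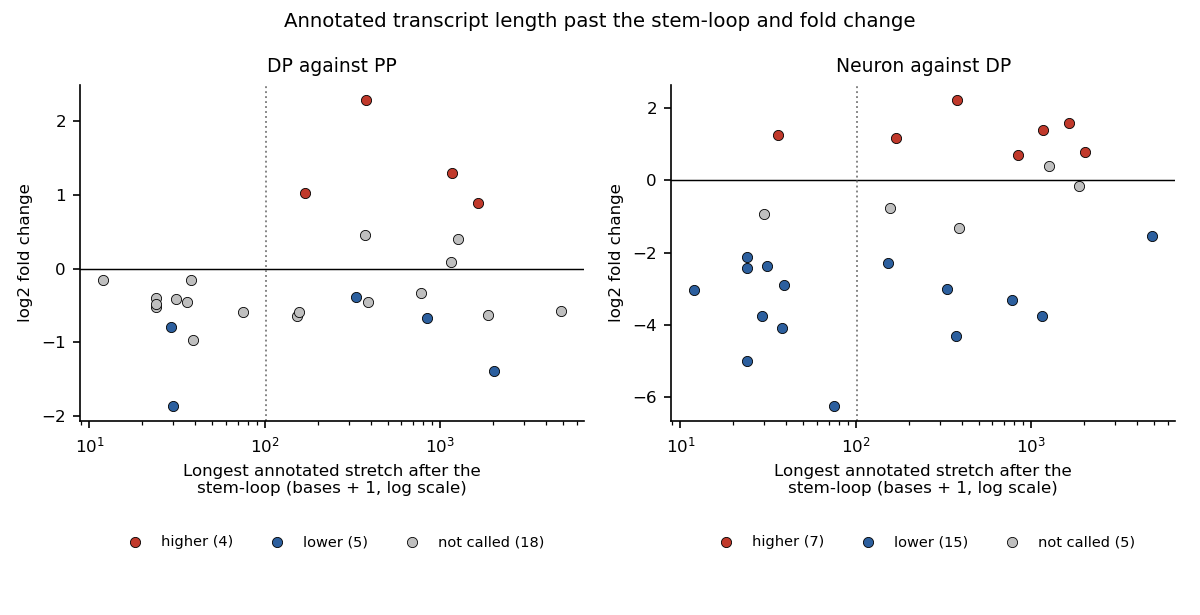
log2 fold change of the 27 tested members with a stem-loop match against the bases annotated after it in their longest transcript (log scale, plus 1), for DP against PP and Neuron against DP; the dotted line marks 100 bases. Right of the line points lie both above and below 0, and left of it 1 of 11 members, Hist2h2aa2, is above 0 in Neuron against DP. For some members the counted exons are shorter in all than the transcript. Members left of the line that were called lower in Neuron had no Neuron library over the filter level.

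Upstream of the genes, promoters of 60 members were matched in the RefSeq table (GRCm38.p6), each covering 250 bases before to 50 after the start. A few short motifs known from histone promoters were searched on both strands: the CCAAT box (CCAAT), the TATA box (TATAAA), the octamer (ATTTGCAT), which is bound by POU factors, and an E2F-type site (TTTNNCGC). CCAAT occurred in 51 of 60 members (85.0%), against 37.4% of all 32851 promoters. TATAAA occurred in 34 (56.7%, against 13.6%), the octamer in 13 (21.7%, against 1.74%) and TTTNNCGC in 18 (30.0%, against 5.17%). H4 promoters were different within the family: 3 of 12 held CCAAT, whereas all 48 promoters of the other classes did. The octamer was found in H2A and H2B promoters alone, 6 of 16 and 7 of 16.

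The promoters of both Hist3 genes are printed because these genes rose together, next to those of Hist1h2ag, Hist1h3c and Hist1h4i, H2A, H3 and H4 genes among the 12 highest per length that were lower in Neuron. Capitals mark every match to these motifs on either strand, and matches may overlap.

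Hist3h2a (RefSeq H2aw, chr11:58954435-58954734, plus strand): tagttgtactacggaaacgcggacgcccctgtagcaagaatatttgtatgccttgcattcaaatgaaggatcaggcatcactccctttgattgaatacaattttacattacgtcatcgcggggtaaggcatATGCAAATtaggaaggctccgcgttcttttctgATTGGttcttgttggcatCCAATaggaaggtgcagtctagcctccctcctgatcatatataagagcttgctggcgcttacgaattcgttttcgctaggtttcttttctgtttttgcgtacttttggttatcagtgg
Hist3h2ba (RefSeq H2bu2, chr11:58948661-58948960, plus strand): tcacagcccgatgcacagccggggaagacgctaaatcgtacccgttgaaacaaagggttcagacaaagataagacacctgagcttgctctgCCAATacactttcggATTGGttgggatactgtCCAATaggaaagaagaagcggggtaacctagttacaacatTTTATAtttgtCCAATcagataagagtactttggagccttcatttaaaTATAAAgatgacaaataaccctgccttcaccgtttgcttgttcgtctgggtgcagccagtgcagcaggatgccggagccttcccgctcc
Hist1h2ag (RefSeq H2ac11, chr13:22042900-22043199, minus strand): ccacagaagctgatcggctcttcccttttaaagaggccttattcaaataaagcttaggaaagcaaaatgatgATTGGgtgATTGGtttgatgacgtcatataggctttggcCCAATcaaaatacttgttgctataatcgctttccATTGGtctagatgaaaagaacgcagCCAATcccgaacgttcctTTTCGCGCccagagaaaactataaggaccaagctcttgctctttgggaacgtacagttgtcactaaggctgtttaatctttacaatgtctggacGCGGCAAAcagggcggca
Hist1h3c (RefSeq H3c3, chr13:23745472-23745771, minus strand): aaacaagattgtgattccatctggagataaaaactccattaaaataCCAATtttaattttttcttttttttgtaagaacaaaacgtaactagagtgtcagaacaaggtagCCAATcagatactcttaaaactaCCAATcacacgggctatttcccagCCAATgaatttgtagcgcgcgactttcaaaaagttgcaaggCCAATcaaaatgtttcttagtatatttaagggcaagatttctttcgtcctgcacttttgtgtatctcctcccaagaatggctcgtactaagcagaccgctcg
Hist1h4i (RefSeq H4c9, chr13:22041313-22041612, minus strand): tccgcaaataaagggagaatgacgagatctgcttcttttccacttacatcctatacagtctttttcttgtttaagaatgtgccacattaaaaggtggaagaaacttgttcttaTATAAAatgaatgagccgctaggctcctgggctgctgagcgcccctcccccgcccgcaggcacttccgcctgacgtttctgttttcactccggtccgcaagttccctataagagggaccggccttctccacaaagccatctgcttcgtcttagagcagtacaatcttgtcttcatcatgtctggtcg

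Of these elements, CCAAT occurred in promoters of members with opposite calls. It was present in 4 of 4 members that were higher at both steps and in 25 of 28 that were lower in Neuron than in DP. In Hist2h3c1 and Hist2h3c2 the only match lay past the annotated start, by 29 and 14 bases. In those 25 all matches lay ahead of it. The sequences of Hist2h3c1 and Hist2h3c2 are nearly the same, so in any count over the 4 these 2 are not separate cases. TATAAA was found in 1 of those 4 and in 17 of those 28, and the octamer in 1 of 4 and 7 of 28. The promoter of Hist3h2a held the octamer and that of Hist3h2ba 2 matches to TATAAA, while Hist1h2ag held 5 matches to CCAAT and 2 to TTTNNCGC. A match is a run of letters and no measure of binding, and the E2F-type site was found in 0 of the 4 members that were higher at both steps and in 9 of the 28 that were lower in Neuron. Most of those 28 had no Neuron library over the filter level and entered the test through PP or DP alone. The motif counts by call therefore describe the members and support nothing.

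Replacement histone genes lie outside the clusters, and many of them are known to be expressed outside S phase from polyadenylated mRNA. H2afx is known to make a stem-loop mRNA as well, and Cenpa is known to be expressed mainly late in the cycle. Of 12 listed, 3 passed as higher and 1 as lower for DP against PP, and 2 as higher and 8 as lower for Neuron against DP (background 21.3%, 20.2%, 33.1% and 34.2%). Their summed level was 1861.84 to 1948.19 CPM in PP, 2151.33 to 2374.92 CPM in DP and 1432.97 to 1587.04 CPM in Neuron, far above that of all cluster genes together. H3f3b, a gene for the replacement histone of H3, averaged 563 ± 18.4 CPM in DP, against 387 ± 14.7 CPM in PP (log2 0.54 ± 0.07, adjusted p = 0.000101). H3f3a, which encodes the same protein, averaged 182 ± 21.5 CPM in Neuron and 139 ± 12.7 CPM in DP (log2 0.39 ± 0.12, adjusted p = 0.0131). H2afy2, a macro-domain H2A gene, was higher at both steps (log2 0.34 ± 0.06 and 0.42 ± 0.06, SE). H2afz, H2afv and H2afx, other H2A variants, were 1.56, 1.61 and 2.48 lower in Neuron than in DP on the log2 scale. Cenpa, the centromeric H3, averaged 3.99 ± 1.51 CPM in Neuron and 96.2 ± 15.0 CPM in DP, and H1f0, the replacement linker histone, 115 ± 16.3 CPM in Neuron and 302 ± 17.4 CPM in DP (SD, n = 3 each).

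Per length, the Hist3 pair lay between H1f0 and H2afz in Neuron. There Hist3h2ba had 151.7 and Hist3h2a 68.5 CPM per kb, where H1f0 had 215, H2afy2 100, H3f3a 52.0 and H2afz 11.8 CPM per kb. In PP, Hist3h2ba had 33.4 CPM per kb and H2afz 42.7.

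Of 29 listed genes for processing and decay of histone mRNA, 3 passed as higher and 5 as lower for DP against PP, and 5 as higher and 15 as lower for Neuron against DP (21.3%, 20.2%, 33.1% and 34.2% of all features). Slbp averaged 15.7 ± 1.13 CPM in Neuron and 63.5 ± 4.28 CPM in DP (log2 -2.01 ± 0.09, adjusted p = 2.48e-09), and was lower in DP than in PP as well (log2 -0.35 ± 0.08, adjusted p = 0.00594). Npat, the coactivator of histone gene transcription, averaged 36.5 ± 2.23 CPM in Neuron and 64.6 ± 4.43 CPM in DP (log2 -0.82 ± 0.08). Lsm11, part of the U7 particle that directs cleavage after the stem-loop, went the other way and averaged 69.6 ± 4.03 CPM in Neuron and 18.6 ± 1.22 CPM in DP (log2 1.91 ± 0.09, adjusted p = 3.15e-09). Zcchc6, a terminal uridyltransferase, was higher at both steps (log2 0.35 ± 0.07 and 0.43 ± 0.07), and Dcp2, a decapping enzyme, lower at both (log2 -0.46 ± 0.07 and -0.71 ± 0.07). Cstf1, a subunit of the cleavage stimulation factor, fell in Neuron against DP (log2 -1.01 ± 0.08).

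Of 23 histone chaperones and related factors, 4 passed as higher and 5 as lower for DP against PP, and 4 as higher and 15 as lower for Neuron against DP, beside the same shares of all features. The first 2 counts lay near those shares. Asf1b and Chaf1a, which deposit histones behind the replication fork, were lower in Neuron than in DP by log2 -4.63 ± 0.27 and -2.53 ± 0.12. Hat1, which acetylates newly made H4, was lower at both steps (log2 -0.55 ± 0.12 and -2.18 ± 0.13). Nap1l2, Nap1l3 and Nap1l5, nucleosome assembly genes of the nervous system, were higher in Neuron than in DP (log2 2.92 ± 0.14, 2.26 ± 0.19 and 3.90 ± 0.24), and Atrx was higher at both steps.

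S phase genes act in cycling cells. Of 46 listed, 26 were lower (20.2% of all features) and 1 higher (21.3%) in DP than in PP. All 46 were lower in Neuron than in DP (34.2% of all features). Their median log2 fold change was -0.32 and -2.81. The 45 tested histone members had -0.41 and -2.14, and 32 of them passed the filter through PP or DP alone. Mcm2, a subunit of the replicative helicase, averaged 419 CPM in PP, 297 CPM in DP and 30.5 CPM in Neuron. Pcna, the sliding clamp, averaged 185 CPM in PP, 135 CPM in DP and 21.6 CPM in Neuron. These are mixed cells in bulk, so fewer cells of a kind and less RNA per cell cannot be told apart.

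The labels were checked on the sort genes. Btg2 averaged 888.1 ± 251.1 CPM in DP, against 445.2 ± 67.6 CPM in PP, and Tubb3 2384 ± 261.1 CPM in Neuron, against 580.8 ± 98.9 CPM in DP (SD, n = 3 each). Markers of other cell types differed as well. Beside the marker counts below, 20.2% of all features were lower and 21.3% higher in DP than in PP. For Neuron against DP, 34.2% of all features were lower and 33.1% higher. The 12 tested red blood cell markers summed to 19.1 to 125.5 CPM in DP, against 8368 to 15337 CPM in PP, and 10 of 12 were lower in DP. In Neuron they summed to 14.2 to 16.6 CPM. Pericyte markers summed to 8.71 to 12.7 CPM in DP, against 29.9 to 51.1 CPM in PP, with 5 of 5 lower, and endothelial markers to 8.43 to 9.79 CPM in DP, against 7.97 to 25.0 CPM in PP, with 5 of 7 lower. Microglia markers summed to 5.33 to 6.90 CPM in DP, against 8.61 to 12.1 CPM in PP, with 2 of 6 tested lower, and markers of meningeal fibroblasts to 3.62 to 6.78 CPM in DP, against 8.99 to 49.9 CPM in PP, with 2 of 3 tested lower (Col1a1 and Col1a2). The other one tested, Dcn, was higher in DP (2.69 ± 0.312 CPM in DP, 1.31 ± 0.663 CPM in PP; SD, n = 3 each). No listed marker was at 0 in all libraries. The lists for the sorted cells changed at both steps. For DP against PP, 6 of 7 radial glia markers were lower, and 5 of 5 intermediate progenitor markers and 6 of 6 tested neuronal markers were higher. The intermediate progenitor list includes Btg2 and the neuronal list Tubb3. Reporters of these 2 genes defined the sort, so they give no check apart from it. The neuronal markers summed to 1547 to 2193 CPM in DP, against 111 to 273 CPM in PP, and their part in the higher level of the Hist3 pair in DP was not tested. For Neuron against DP, 7 of 7 radial glia markers and 5 of 5 intermediate progenitor markers were lower, and 6 of 6 tested neuronal markers were higher. In Neuron, endothelial markers summed to 1.87 to 4.09 CPM and pericyte markers to 2.48 to 2.83 CPM. The summed levels of red blood cell, pericyte, microglia and fibroblast markers were lower in every DP library than in any PP library, as were Hist1h2bc, Hist1h2ac and Hist1h1c, and their part in those differences was not tested. With the globin genes taken out of the library totals the number of members called for DP against PP stayed at 4 above and 8 below.

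Near-identical copies and overlapping gene models limit what can be said of single members. Of 55 members with a GENCODE transcript under their identifier, 51 shared at least one 50-base window with a transcript of another gene, 25 shared more than 50% of their windows and 5 more than 90%. Hist1h1a, Hist1h1b, Hist1h1t and Hist2h2be shared none. Over all counts in the table, 57.7% of counts came from the paired-end runs, and for the 35 members with at least 100 reads the share was 54.9% to 98.5%. The median was 74.5% over 12 members with more than 50% of their windows shared and 66.97% over 18 with less. Single-read runs thus saw fewer reads of many members than their depth would give, and values of members with many shared windows are the least certain.

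**Figure D5:**
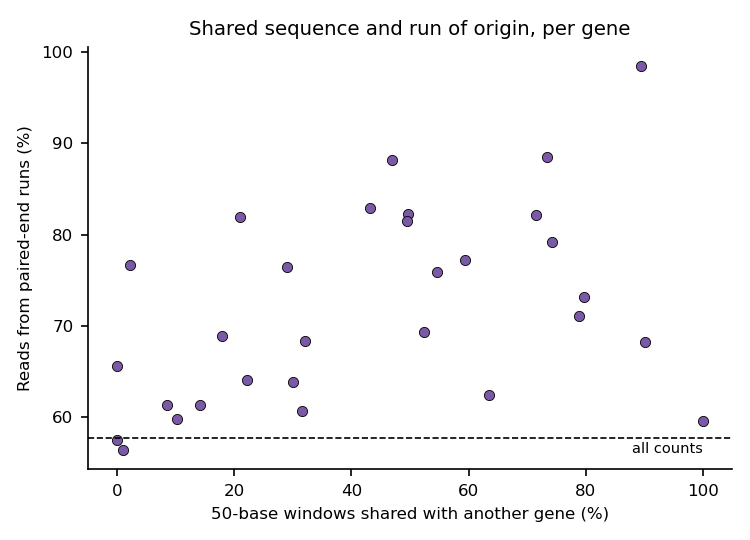
Share of a member's reads that came from paired-end runs against the share of its 50-base windows found in transcripts of other genes, for the 30 members with at least 100 reads and a GENCODE transcript; the dashed line is the share over all counts, 57.7%. All but 2 points lie above the line, and the range is 56.4% to 98.5%.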

How the data were processed

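Deposited whole-number counts per gene cover a single-read and a paired-end run of each of 9 libraries. The submitters' processing notes name TopHat2 2.0.10, featureCounts 1.4.4, DESeq2 1.4.5 and the build mm9, and no source used here states whether strand was used. The log2 fold changes, adjusted p-values, score columns (standard error and test statistic) and size-factor scaled signal in the authors' deposited tables are their own, and of these the fold changes and adjusted p-values were used.

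Here both runs were added per library, and the 3 groups were fitted in R 4.3.3 by edgeR 4.0.16 (filterByExpr with a minimum count of 10, TMM, quasi-likelihood test on all 9 libraries, group as the only term, adjustment over all 18627 features). The fit was tested on simulated data. Alternatives were other scaling, DESeq2 1.42.0, other filters, single runs, 2 groups only, library set as a term, each library left out, and, added after seeing the data, each library set left out. Sets are consecutive library numbers in the column names; what they stand for is not given. Levels are means ± SD of 3 libraries. Replicates were no copies of each other (chi-square per degree of freedom 7.92 to 29.1). Members, gene lists and the naming rule were chosen with earlier results of these data known: the 12 highest per length, up to 8 called members per direction with at least 1 CPM and no overlap, members that change direction, and 3 genes per list with a few hallmark genes. Sequences are from RefSeq and GENCODE (GRCm38), coordinates of genes from the files. Ratios from 1 to 3 reads carry a 95% counting interval, and intervals and floors cover counting error only.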

Additional observations from a re-analysis of the deposited data

Results flagged for a closer look

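A pair of entries of the same name pattern that are not protein-coding, and so are no members, were higher in Neuron than in PP. A second Hist2h3c1 entry, a processed transcript that contains the protein-coding one, had a log2 fold change of 2.63 (2.16 ± 0.239 CPM in Neuron, 0.347 ± 0.00430 CPM in PP; SD, n = 3 each). The pseudogene Hist3h2bb-ps, which lies between Hist3h2ba and Hist3h2a, had a log2 fold change of 2.16 (0.862 ± 0.167 CPM in Neuron, 0.193 ± 0.0489 CPM in PP). Hist3h2ba shares 22.1% of its 50-base windows with this pseudogene. All 1820 exon bases of the protein-coding Hist2h3c1 lie in the second entry of that name. The protein-coding one had nearly the same level, with means of 2.15 CPM in Neuron and 0.333 CPM in PP. The 2 entries therefore hold largely the same reads, counted for both, and are not separate cases. Whether the counts of Hist3h2bb-ps come from the pseudogene itself or from the neighbouring genes was not tested.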

How the results depend on the processing

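No paired analysis was possible because the replicate numbers in the sample titles could not be tied to the count columns, whose library numbers appear in no label. Library set, taken from consecutive column numbers alone, was fitted as a term in its place. The number of members lower in DP than in PP was 8 in the reported fit, 2 with single-read runs only, 2 without the second and 4 without the third library set, and 5 to 9 with 1 library left out. It was 12 with library set as a term. Members lower in Neuron than in DP numbered 30, and 7 with at least 1 CPM in 3 libraries, 8 with single-read runs only and 31 to 35 with 1 library left out, where the filter asks for fewer libraries. Members lower in Neuron than in PP numbered 36, and 9, 10 and 34 to 39 in these settings. Counts of members higher ranged from 3 to 5, 6 to 8 and 4 to 6 over all settings for DP against PP, Neuron against DP and Neuron against PP. Of single genes, Hist1h2af changed sign in DP against PP without DP library L356 (log2 -0.16; 2.04 without PP library L355), and Hist1h1c in Neuron against PP with single-read runs (-0.0248), where leaving out 1 library gave -0.15 to 0.18: without PP library L355 (-0.0035), without Neuron library L395 (-0.15) and without the third set (-0.11). Neither was called in the reported fit of these comparisons. Over 48 fold changes of named members, 929 alternative values kept direction and call, 49 kept direction and lost the call, and 7 gained it; the causes were not tested. Depth limits members with few reads in Neuron.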

Other observations

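The Hist2 sum was 31.8 ± 1.97 CPM in PP, 24.3 ± 1.37 CPM in DP and 16.6 ± 0.540 CPM in Neuron (SD, n = 3 each), and Hist2h2be made up most of it, with 29.9 ± 2.04 CPM in PP, 21.7 ± 1.91 CPM in DP and 11.4 ± 0.485 CPM in Neuron. Hist2h3c1 and Hist2h3c2, in the same cluster, went the opposite way. By class, the H2A sum was 37.3 ± 8.38 CPM in PP, 59.8 ± 12.4 CPM in DP and 139 ± 11.8 CPM in Neuron. Hist3h2a made up most of it, with means of 24.8 CPM in PP, 45.8 CPM in DP and 136 CPM in Neuron. The level of Hist3h2a is itself uncertain, since it shares exon bases with Trim17. The H3 sum was 5.62 ± 0.708 CPM in PP, 5.34 ± 0.822 CPM in DP and 4.06 ± 0.290 CPM in Neuron.

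The antisense genes opposite Hist2h2aa1 and Hist2h2aa2 were lower in Neuron. RP24-201C14.5 averaged 0.247 ± 0.0399 CPM in Neuron, against 1.08 ± 0.109 CPM in DP (log2 -2.12, adjusted p = 6.87e-06, edgeR), and RP24-201C14.6 averaged 0.174 ± 0.0535 CPM in Neuron, against 0.948 ± 0.239 CPM in DP (log2 -2.42, adjusted p = 2.25e-05, edgeR). Hist2h2aa2, opposite the first of them, was higher in Neuron. The annotation names are unstable here: the GENCODE M21 annotation gives the names Hist2h2aa1 and Hist2h2aa2 to each other's identifiers.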
